A study of Mus musculus with 4 samples.

Results

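The antioxidant and glutathione enzymes described here are 10 genes: Gsta4, Gstm1, Gsto1, Gpx1, Gpx4, Cat, Sod1, Sod2, Prdx3 and Txnrd1. Every probe set annotated to exactly 1 of these genes was taken, which gave 12 of the 12422 probe sets on the array other than controls. Gstm1 and Cat have 2 probe sets each, and the other genes have 1. A 13th match was left out: Mip, a lens water channel, carries the old symbol Cat as a synonym, and its signal stayed between 34.7 and 90.8 on all 4 arrays. The arrays were one-colour Affymetrix oligonucleotide arrays of total RNA from mouse ventricle. The ERRa ko group (knockout, 2 arrays) came from mice lacking ERRα, the orphan nuclear receptor encoded by Esrra, and the ERRa wt group (wild type, 2 arrays) from wild-type mice, all at baseline with no added stress. The labels do not give the strain, age or sex of the mice or the construction of the knockout allele, and do not say whether the 2 numbered samples of a group were separate animals, so the spread between them may be technical.

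These enzymes remove reactive oxygen species, which in the heart arise largely from the electron transport of mitochondria. Superoxide dismutases turn superoxide into hydrogen peroxide, which catalase, the glutathione peroxidases and the peroxiredoxins then remove. Glutathione peroxidases draw on glutathione and peroxiredoxins on thioredoxin, and both carriers are returned to their reduced form with NADPH. Glutathione transferases attach glutathione to reactive products such as those of lipid peroxidation. ERRα regulates genes of mitochondrial energy metabolism together with the coactivator PGC-1α, and PGC-1α is also known for promoting antioxidant genes, Sod2 among them.

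The genotype labels were checked on Esrra itself. Its 2 probe sets gave 2688 and 2828 in wild type against 83.6 and 55.2 in knockout, and 8598 and 8039 against 922 and 1050. All 8 cardiomyocyte markers on the array, such as Myh6 and Tnnt2, were above the filter on low signal, and nothing in them went against the labelled tissue. Their summed signal overlapped between the groups. Of their 9 kept probe sets, 3 were lower in knockout without overlap, those of Tnnt2, Mb and Tnni3, against 16.7% of all probe sets tested. None was higher without overlap, 6 overlapped, and the median log2 difference was -0.11. Of 7453 probe sets tested, 1 (0.0134%) passed a Benjamini-Hochberg adjusted p of 0.05 in limma, and it detected Esrra. The ratio of 5' to 3' signal was lower on both knockout arrays for β-actin (0.694 and 0.813 against 0.966 and 0.909) and for Gapdh (0.994 and 0.968 against 1.04 and 1.01). The summed marker signal of several other cell types also differed between the groups without overlap. Smooth muscle markers summed to 16384 to 24244 in knockout and 8479 to 9532 in wild type (4 of 5 above the filter). That gap came from Acta2 alone, at log2 2.04, since Tagln, Myh11 and Smtn overlapped between the groups, at -0.08, -0.0044 and 0.17. Fibroblast markers to 94825 to 99936 and 69500 to 80084 (7 of 7 above the filter; 9 of 11 kept probe sets higher without overlap), and atrial markers to 19106 to 19815 and 10121 to 12524 (3 of 4). Adipocyte markers summed to 5097 to 5860 in knockout and 4061 to 5010 in wild type (3 of 6, with Retn, Cidec and Ucp1 not above the filter). Of their 4 kept probe sets, 2 were higher without overlap, Adipoq (log2 1.44) and 1 of Lep (0.76). The other of Lep (-0.76) and Fabp4 (-0.02) overlapped. Leukocyte markers summed to 9452 to 10633 in knockout and 8300 to 8888 in wild type (3 of 7). The leukocyte markers did not move as one: of 4 kept probe sets only 1, of Csf1r, was higher without overlap. Below the filter, a probe set of Adgre1 stood at 397 and 500 in wild type and 176 and 202 in knockout. One of Ptprc stood at 214 and 201 against 47.7 and 144. Others below the filter lay higher in knockout, one of Cd68 at 39.3 and 26.9 against 200.2 and 272.8. One of Lyz2 stood at 16.3 and 17 against 228.5 and 114.7. A second of Adgre1, at 24.2 and 79.3 against 225.8 and 63.8, overlapped. Endothelial markers summed lower in knockout, at 14676 to 15267 against 16598 to 20272 (6 of 6 above the filter). Only 3 of their 7 kept probe sets, of Cdh5 and Tie1, were lower without overlap, and the other 4 overlapped. Markers of red cells, which carry catalase and peroxidases, overlapped at 159136 to 224658 and 149534 to 205115 (4 of 4). Most of that sum was Hba-a1, at 143861 to 215951 over the 4 arrays. The red cell markers did not move as one. Car2 was higher (log2 1.09) and Slc4a1 lower (-0.27) without overlap, and Alas2 (0.08) and Hba-a1 (0.11) overlapped. Hepatocyte markers summed to 2127 to 3149 and 1507 to 1698, with 1 of 5 above the filter and albumin (Alb), Apoa1, Ttr and Fgb not. The part of RNA quality and of cell makeup in the results below was not tested. In such bulk tissue, fewer cells of a type and less RNA per cell cannot be told apart.

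In the knockout ventricles the clearest differences among the antioxidant and glutathione enzymes were lower signals of Gsta4 and Gsto1, while Cat (on 1 of its probe sets), Txnrd1, Sod1 and Sod2 lay lower by smaller amounts. All 12 probe sets passed the filter on low signal. 8 of them had a lower mean in knockout, where 46.8% of all probe sets tested did. 6 were lower without overlap between the groups, where 16.7% of all probe sets were, and 1 was higher without overlap, where 20.7% were. Only Gsta4 and Gsto1 were at least 1.5-fold lower without overlap, where 4.2% of all probe sets were, and none was 1.5-fold higher, where 6.84% were. The median log2 difference, knockout minus wild type, was -0.17 over the 12 probe sets and 0.03 over all probe sets. Brighter probe sets leaned lower as a whole, and 11 of the 12 lay in the 2 brightest of 5 equal bins of signal. In the brightest bin, with 6 of the 12, 57.6% of all probe sets had a lower mean, 24.1% were lower without overlap and the median was -0.05; in the next, with 5, the values were 49.4%, 18.4% and 0.0061. The genes were chosen by function with their knockout and wild-type signals already known, so their differences are given as a description with no test, and nothing is read from these shares. None of the 12 passed limma over all probe sets, and 2 had an unadjusted p under 0.05 (6.79% of all probe sets). With 2 arrays against 2, the smallest two-sided p that an exact permutation test allows is 0.333.

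**Figure D1:**
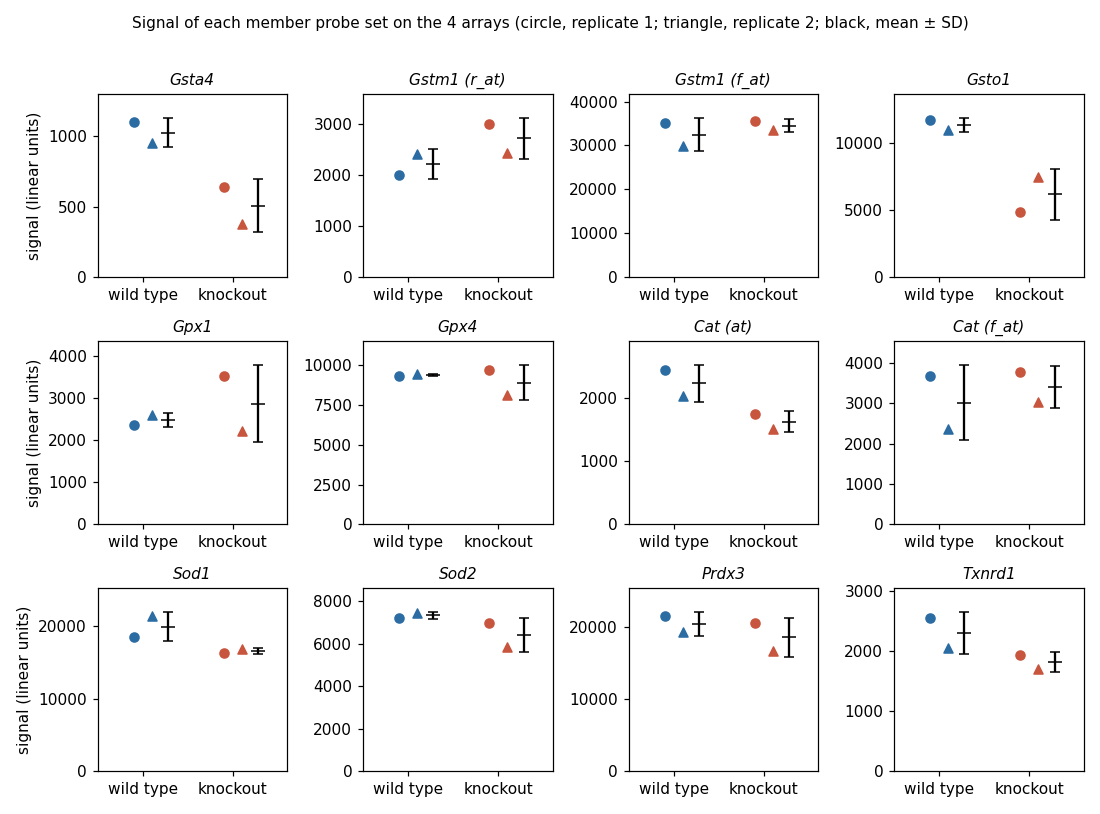
Linear signal of the 12 probe sets of the antioxidant and glutathione enzymes on the 4 arrays, with wild type in blue, knockout in red, circles for replicate 1, triangles for replicate 2 and black bars for the mean ± SD (n = 2). The knockout points of Gsta4 and Gsto1 lie well below the wild-type points, whereas those of Gpx1, Gpx4, Prdx3 and the f_at probe sets of Cat and Gstm1 overlap with wild type.

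Among the glutathione transferases, Gsta4 encodes an alpha-class enzyme that conjugates glutathione to hydroxynonenal, an aldehyde released from oxidized lipids. Its signal was 1099 and 952 in wild type and 639 and 375 in knockout. Both knockout arrays lay below both wild-type arrays, with knockout replicate 2 the lowest. The means were 1025 ± 104 and 507 ± 187 (SD, n = 2 each), a log2 difference of -1.06 (SE 0.33), or 2.09-fold lower. The difference exceeded the replicate SD of 0.40 on the log2 scale, which itself was above the median of 0.32 for probe sets of like signal. Without knockout replicate 2 the difference was -0.68, and without knockout replicate 1 it was -1.45.

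Gsto1 encodes an omega-class transferase that reduces dehydroascorbate and mixed disulfides with glutathione. Its signal was 11671 and 10949 in wild type and 4826 and 7469 in knockout. Both knockout arrays were lower here too, but knockout replicate 1 was the lowest, the reverse of Gsta4. The means were 11310 ± 511 and 6147 ± 1869 (SD, n = 2 each), a log2 difference of -0.91 (SE 0.29), or 1.88-fold lower. Its replicate SD was 0.32 on the log2 scale, against a median of 0.16 for probe sets of like signal, and nearly all of it came from the knockout pair, which differed by 0.63 while the wild-type pair differed by 0.0922. The difference was -0.60 without knockout replicate 1 and -1.23 without knockout replicate 2. The lower signals of Gsta4 and Gsto1 were thus not led by the same array.

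Gstm1, a mu-class transferase that is abundant in many tissues, did not share this direction. Its r_at probe set gave 1997 and 2413 in wild type and 2996 and 2435 in knockout (log2 difference 0.30, SE 0.24). These groups failed to overlap only by the small gap between wild-type replicate 2 and knockout replicate 2. The f_at probe set gave 35153 and 29811 in wild type and 35544 and 33487 in knockout (0.09, SE 0.21; -0.03 after median scaling), with overlapping groups. The suffix f marks probes shared by a family of sequences and r a probe set that broke a design rule, so other mu-class genes can add to both signals.

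The enzymes that remove hydrogen peroxide were split. Catalase, the heme enzyme of peroxisomes, had a Cat probe set of unique probes at 2440 and 2027 in wild type and 1746 and 1511 in knockout. Both knockout arrays were lower, with a log2 difference of -0.45 (SE 0.22), 1.37-fold. The second Cat probe set, with the family suffix f, gave 3674 and 2359 against 3762 and 3040 (0.20, SE 0.30). Its wild-type arrays lay further apart than the group means, and the sign of its difference turned without wild-type replicate 2 (-0.12). The 2 Cat probe sets therefore disagreed in direction.

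Gpx1, the abundant cytosolic and mitochondrial glutathione peroxidase, gave 2368 and 2593 in wild type and 3522 and 2226 in knockout. The knockout arrays lay on either side of the wild-type arrays, and the log2 difference of 0.18 (SE 0.30) became -0.15 without knockout replicate 1. Gpx4, which reduces peroxides of membrane lipids, gave 9318 and 9415 in wild type and 9684 and 8119 in knockout (-0.08, SE 0.21). Its wild-type arrays were almost equal and lay between the knockout arrays; RefSeq also lists a pseudogene copy, Gpx4-ps2, whose transcripts the probes might share. Neither peroxidase differed beyond the spread between replicates.

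Prdx3 is the peroxiredoxin of the mitochondrial matrix. It gave 21579 and 19250 in wild type and 20486 and 16691 in knockout, with overlapping groups and a log2 difference of -0.14 (SE 0.22). Txnrd1, the cytosolic thioredoxin reductase that passes electrons from NADPH to thioredoxin, gave 2541 and 2049 in wild type and 1939 and 1694 in knockout. Both its knockout arrays were lower, by little in the case of wild-type replicate 2 and knockout replicate 1, with a log2 difference of -0.33 (SE 0.23), 1.26-fold. Gpx1, Gpx4 and Txnrd1 all carry selenocysteine, and their differences of 0.18, -0.08 and -0.33 shared no direction.

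Both superoxide dismutases lay slightly lower in knockout. Sod1, the copper and zinc enzyme of the cytosol, gave 18453 and 21280 in wild type and 16204 and 16775 in knockout. The groups did not overlap, and the log2 difference was -0.27 (SE 0.21), 1.20-fold. Sod2, the manganese enzyme of the mitochondrial matrix, gave 7210 and 7429 in wild type and 6981 and 5837 in knockout (-0.20, SE 0.21). Knockout replicate 1 lay just below the wild-type arrays, and without knockout replicate 2 the difference was -0.07. The mitochondrial enzymes Sod2 and Prdx3 both had their lowest signal on knockout replicate 2. This was not particular to them, since that array was the lowest for 7 of the 12 probe sets.

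**Figure D2:**
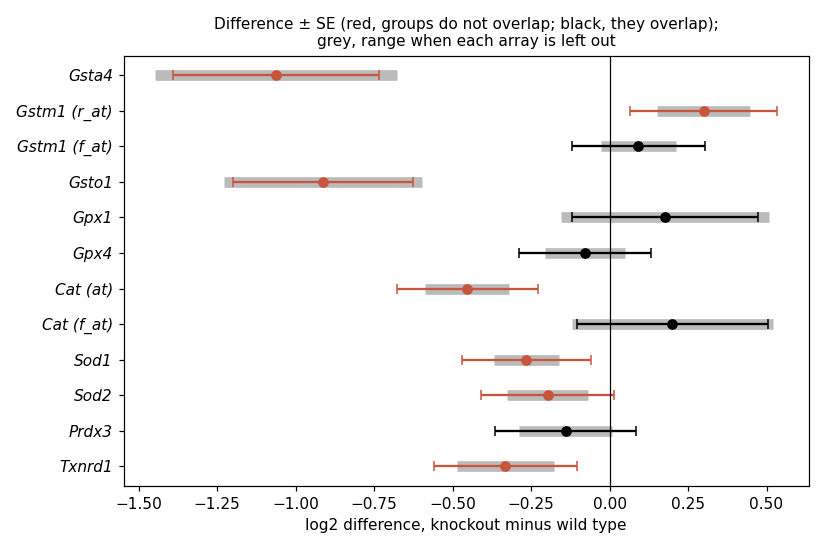
Log2 difference, knockout minus wild type, of each probe set with its limma SE (bars), in red where the groups do not overlap and in black where they do; the grey band spans the values obtained when each of the 4 arrays is left out. The bands of Gsta4 (-1.45 to -0.68) and Gsto1 (-1.23 to -0.60) stay furthest from 0, and those of Gstm1 (f_at), Gpx1, Gpx4, Cat (f_at) and Prdx3 include it.

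The arrays of a genotype were not alike for these genes. Knockout replicate 1 lay above knockout replicate 2 for 10 of the 12 probe sets, against 49.5% of all probe sets tested. Knockout replicate 2 was the lowest of the 4 arrays for 7 of 12, against 23.9% of all. With each probe set set to its mean over the 4 arrays, the median over the 12 was 0.11 and 0.03 on the wild-type arrays, 0.05 on knockout replicate 1 and -0.19 on knockout replicate 2. The exceptions were Gsto1 and Sod1, which were lowest on knockout replicate 1. Between the wild-type arrays, replicate 1 was the higher for 7 of 12. Leaving out knockout replicate 2 took the median difference of the 12 from -0.17 to -0.030 and the number with a lower mean from 8 to 6, and leaving out knockout replicate 1 took them to -0.26 and 9. Without wild-type replicate 2, 10 had a lower mean, and 1 of the 2 Cat probe sets (-0.59) was the third at least 1.5-fold lower without overlap. A group of 1 array overlaps less readily, and the same counts over all probe sets were not taken with an array left out. Nothing is therefore read from these member counts.

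**Figure D3:**
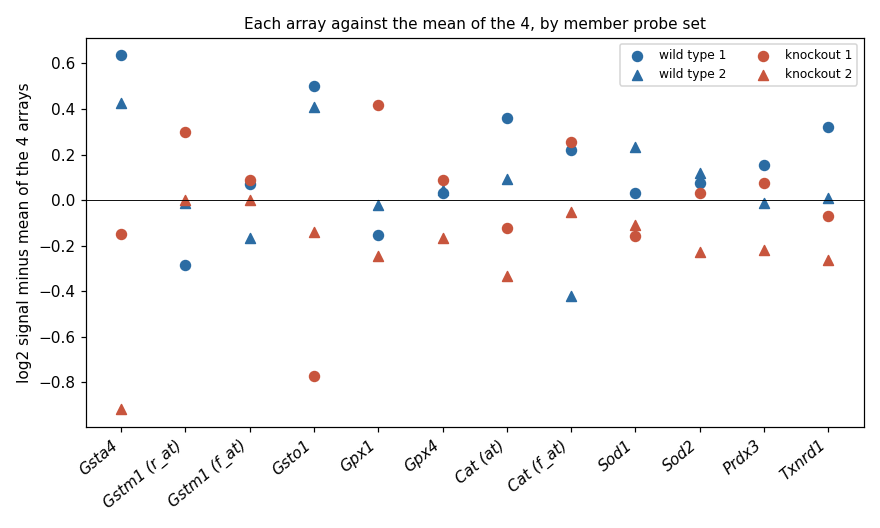
Log2 signal of each array minus the mean of the 4 arrays for that probe set, wild type in blue and knockout in red, circles for replicate 1 and triangles for replicate 2. Knockout replicate 2 is the lowest point for 7 of the 12 probe sets, Gsta4 among them, and knockout replicate 1 is the lowest for Gsto1 and Sod1.

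The median over the 12 probe sets was -0.11 after quantile normalization and -0.29 after median scaling. A lower mean was then found for 8 and 9 of them, against 50.0% and 61.3% of all probe sets. Without overlap, 6 were lower and 1 higher after quantile normalization, and 8 were lower and 0 higher after median scaling. The shares of all probe sets without overlap were not taken under these scalings, so nothing is read from the change. Median scaling moved the median of all probe sets by -0.13, and relative to the median of all probe sets the 12 lay at -0.20 in the main scaling, -0.11 after quantile normalization and -0.20 after median scaling. Of all probe sets tested, 510 were at least 1.5-fold higher and 313 lower without overlap in the main scaling, with 391 and 420 after quantile normalization and 324 and 527 after median scaling.

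Other genes of the same pathways, listed by function, were measured by 104 probe sets of 74 genes, of which 74 probe sets of 61 genes passed the filter. None of these passed limma over all probe sets, and 2 had an unadjusted p under 0.05, both higher in knockout, against 4.13% higher and 2.66% lower over all probe sets. 43 of the 74 (58.1%) had a lower mean, against 46.8% of all probe sets. Without overlap, 16 were lower and 11 higher, against 16.7% and 20.7% of all. Their median log2 difference was -0.06, against 0.03 over all. At least 1.5-fold without overlap, 5 were higher and 2 lower, against 6.84% and 4.2% of all probe sets. Of the 5, Maff, Selenow and Cybb had wild-type means of 248, 252 and 278, which are below the filter. They passed it only through their knockout signal. Selenow was also 1 of the 2 with an unadjusted p under 0.05. With the filter at the 60th percentile, 2 were higher and 1 lower. After median scaling 4 were higher and 5 lower, against 324 and 527 of all probe sets. The list then had a median of -0.18 and 53 of 74 with a lower mean, against 61.3% of all. Raising the floor to the 40th percentile left 2 higher and 2 lower. The 1.5-fold counts over all probe sets were not taken for the 60th percentile filter or for this floor. The 1.5-fold counts also changed when any 1 array was left out. A group of 1 array overlaps less readily, and the same counts over all probe sets were not taken. The genes named next did not pass (limma adjusted p of 0.694 or higher), and were those with the lowest p in each role.

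Of the remaining glutathione transferases, with 15 probe sets and a median of -0.05, the mitochondrial and peroxisomal Gstk1 gave 5926 and 5002 in wild type and 3757 and 4007 in knockout (log2 difference -0.49, SE 0.21). The alpha-class Gsta2 lay the other way from Gsta4, at 1075 and 568 in wild type and 1417 and 1248 in knockout (0.77, SE 0.37). The 2 alpha-class genes thus lay in opposite directions, and neither passed the threshold. Among the other peroxidases, Gpx3, the secreted form, gave 22591 and 14016 against 17561 and 16411, and Gpx2 1245 and 708 against 907 and 793. The wild-type arrays enclosed the knockout arrays for both.

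In glutathione synthesis and use, with 9 probe sets and a median of -0.11, Glo1, the glyoxalase that clears methylglyoxal with glutathione, was lower without overlap on both of its probe sets (log2 differences -0.41 and -0.55). Glrx, a glutaredoxin that removes glutathione from proteins, gave 3223 and 2335 in wild type and 3823 and 3800 in knockout (0.47, SE 0.25). The 2 genes thus lay in opposite directions. Of the thioredoxins and peroxiredoxins, with 12 probe sets and a median of -0.05, Prdx2 had log2 differences of 0.07 on its g_at probe set and -0.81 on its other kept probe set, where knockout replicate 2 was at 327 and the other arrays at 800 to 947. Msrb1, a methionine sulfoxide reductase that carries selenocysteine, gave 8738 and 12086 against 15129 and 13104 (0.45, SE 0.26). The mitochondrial partners of Prdx3 were chosen after seeing their values. Both lay lower without overlap, Txn2 at -0.25 (SE 0.21) and Txnrd2 at -0.31 (SE 0.20). Of the 12 probe sets of this role, 5 were lower without overlap and 2 higher, against 16.7% and 20.7% of all probe sets. As the pair was picked by its values, nothing is read from it.

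Extracellular Sod3 gave 5785 and 3196 in wild type and 6928 and 4758 in knockout, and the kept probe set of Ccs, the chaperone that loads copper into Sod1, gave 2854 and 2068 against 3332 and 2281. Both overlapped between the groups, and both means lay higher in knockout, unlike Sod1 and Sod2. Genes of the Nrf2 pathway, ferritin and metallothionein had a median of 0.02 over 13 probe sets. Maff, a small partner of Nrf2, gave 110 and 387 against 489 and 567 (log2 1.35, SE 0.64), with 1 wild-type array at the floor set for low signals, and Mafk gave 3083 and 3665 against 3104 and 2367.

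Of 7 NADPH-supplying enzymes, Me1, the cytosolic malic enzyme, stood at 2800 and 2804 in wild type and 4740 and 4069 in knockout (log2 0.65, SE 0.21, limma adjusted p = 0.694). Nnt, the transhydrogenase that makes NADPH in mitochondria, gave 31970 on wild-type replicate 2 and 16732 to 18934 on the other arrays. Wild-type replicate 1 thus lay near the knockout arrays, and the group difference was -0.49 (SE 0.32). Among sources of superoxide and peroxide, Cybb, the catalytic subunit of the phagocyte NADPH oxidase, gave 227 and 329 against 415 and 491 (0.72, SE 0.27). Its relation to leukocyte content was not tested. Xdh, xanthine dehydrogenase, gave 1838 and 2197 against 1584 and 1095 (-0.61, SE 0.28). Of the other selenium genes, Selenow gave 203 and 300 against 442 and 590 (log2 1.05, SE 0.30, limma adjusted p = 0.694) and Selenok had 0.19 and 0.41 on its 2 probe sets.

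**Figure D4:**
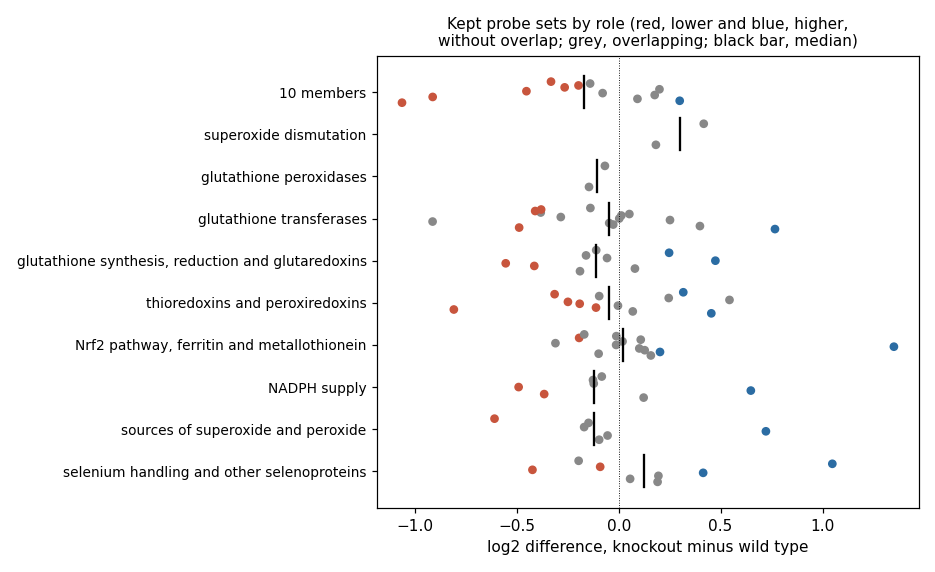
Log2 difference, knockout minus wild type, of each probe set that passed the filter, for the 10 genes described here (top) and for other redox genes by role; red points are lower and blue points higher without overlap, grey points overlap, and black bars are medians. The top row has its median at -0.17, and the medians of the other roles run from -0.12 for NADPH supply and for the sources of superoxide and peroxide to 0.30 for superoxide dismutation, which has 2 probe sets.

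The genes whose 4 log2 signals, each set to their own mean, lay closest to those of Gsta4 and Gsto1 were different for the pair. For Gsta4 they were Mapk10, Ptprcap and Entr1, at root mean square distances of 0.0495, 0.0584 and 0.105 on the log2 scale over the 4 arrays. For Gsto1 they were Stk24, Etfdh and Pias2, at 0.0415, 0.0568 and 0.0652. The Mapk10 and Stk24 probe sets carry the family suffix f, so related sequences can add to their signals. Another Mapk10 probe set had a log2 difference of -0.53, against -1.12 for the one near Gsta4. Etfdh, which carries electrons from fatty acid oxidation into the respiratory chain, gave 12179 and 12246 in wild type and 5488 and 7793 in knockout, the same order of the knockout arrays as Gsto1. With 4 arrays and 7453 probe sets, such likeness is a description of these arrays.

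The promoters of the genes were searched for 3 motifs in the 300 bases from 250 before to 50 after each start site, taken from RefSeq (GRCm38.p6), on both strands. 15 promoters of 9 of the 10 genes were held; Gsta4 was not among them. The response element of the ERR receptors, TNAAGGTCA, was in none of the 15 and in 1.28% of all 32851 promoters, and AAGGTCA, the shorter core contained in it, in none of the 15 and in 4.72% of all. TGACNNNGC, the core of the antioxidant response element bound by Nrf2, was in 2 of the 15 (13.3%) and in 12.4% of all. Those 2 are shown with Gsto1, 1 of the 2 genes that differed most, as the 150 bases before the start site, with capitals marking the match to TGACNNNGC on the reverse strand.
Sod1, chr16:90220612-90220761, plus strand: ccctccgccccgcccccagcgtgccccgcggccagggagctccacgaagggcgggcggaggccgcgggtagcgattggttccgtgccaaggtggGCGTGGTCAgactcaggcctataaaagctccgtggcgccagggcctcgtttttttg
Txnrd1, chr10:82859056-82859205, plus strand, 1 of 3 starts: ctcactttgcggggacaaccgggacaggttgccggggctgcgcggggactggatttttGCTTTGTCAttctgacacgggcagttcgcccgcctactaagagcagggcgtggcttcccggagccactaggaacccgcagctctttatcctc
Gsto1, chr19:47854823-47854972, plus strand: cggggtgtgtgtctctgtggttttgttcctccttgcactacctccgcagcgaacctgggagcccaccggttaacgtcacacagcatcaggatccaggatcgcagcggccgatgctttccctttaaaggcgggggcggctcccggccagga
The match began 56 bases before the start of Sod1 and 92 before that start of Txnrd1. Sod1 and Txnrd1 had log2 differences of -0.27 and -0.33, and Gsto1, with no match in this window, had -0.91. A match of these letters is a description of the sequence and does not show that a factor bound there.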

How the data were processed

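Per the labels' protocols, ventricular RNA was purified and copied into biotin-labelled cRNA from a T7-dT primer before hybridization. The authors' deposited values are a linear intensity per probe set, scaled so that each array had a mean of 1501 without the highest and lowest 2% of values; the summary method, background correction and build are not given in the sources used here. Of 12488 rows, 66 were control probe sets and were not used. A probe set was kept where its mean reached the 40th percentile (350.6), and signals below 110 (the 20th percentile) were raised to that floor before log2 transformation. The 2 genotypes were compared over 7453 probe sets with limma 3.58.1 in R 4.3.3 (lmFit, eBayes) and Benjamini-Hochberg adjustment at 0.05. The number of arrays limits the precision. Symbols came from the platform annotation, and 10817 of 10833 probe sets with 1 symbol matched RefSeq by gene ID; 396 had several and 1193 none here. The members and lists were chosen with earlier results of these data known. Named genes were all members, per role of the wider list the 2 genes with the lowest p, and the 3 nearest probe sets of members changed at least 1.5-fold without overlap. Txn2 and Txnrd2, and the marker genes given with values, fall outside this rule and were chosen after their values were seen. The fit was tested on simulated data.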

Additional observations from a re-analysis of the deposited data

How the results depend on the processing

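Of 7453 probe sets, 1 passed in the main fit. 0 passed with no filter, with floors at the 5th or the 40th percentile, without cross-hybridizing suffixes or without any 1 array (0 to 0), and 2 passed with a filter at the 60th percentile and with the trend and robust prior. With the replicate number as a block (replicate block) 0 passed. Deviations of same-numbered samples correlated at 0.01 over all probe sets tested, so no common shift was seen. This cannot show whether the samples were paired, and the labels do not say. Of the wider list 0 passed in each alternative. The member median ran from -0.26 to -0.030 without each array. 2 member probe sets were at least 1.5-fold changed without overlap, and 1 with the filter at the 60th percentile, which removes Gsta4. Without each array the count was 2 to 3, but a group of 1 array overlaps less readily. Of single member differences, that of Sod1 moved most against its replicate SD, to -0.39 after median scaling; filter, floor, prior and block leave them as they are by construction, and leaving out an array cannot move one beyond its SD, so these show no stability. With 2 arrays per genotype, small differences could not be told from replicate spread.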
